A study of Mus musculus with 4 samples.

Results

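The starvation response of gastrocnemius muscle without FoxO1, FoxO3 and FoxO4 was read as the ratio of the starved to the fed array of FoxO1,3,4-/- mice. It comprised 7281 of the 18193 mouse genes with a probe set assigned to 1 gene, namely those for which such a probe set reached the 75th percentile of its array, a signal of 125.3 on the fed or 119.9 on the starved knockout array. The last probe set inside this limit had signals of 125.3 fed and 96.2 starved, and the first outside it 125.2 and 97.4. Gene expression had been measured on 4 Affymetrix mouse arrays, 1 each for fed and starved control and fed and starved knockout muscle. The RNA on each array was a pool of 6 gastrocnemius muscles from 3 male mice, and starved animals had gone 24 h without food but with water, while fed animals ate freely. All mice came from a cross of C57BL/6N and FVBN, and the mice of the study were between 2 and 4 months old. Control mice, named wild type in the labels, carried the floxed alleles of the FoxO genes (FoxO1,3,4 f/f) without Cre, so that the floxed alleles were shared by all 4 groups. Knockout mice also carried a Cre transgene under the MLC1f promoter, which acts in fast muscle fibres, and the other cells of the muscle keep their FoxO genes. With 1 pooled array per condition no difference has a replicate check and no test was possible.

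FoxO proteins are forkhead transcription factors that insulin and IGF1 signalling keep out of the nucleus through Akt. In fasting, when insulin falls, they enter the nucleus and switch on genes of protein breakdown and autophagy in skeletal muscle. Other regulators act in the fasted muscle as well, among them the glucocorticoid receptor, which responds to the adrenal hormone released in fasting, PPAR receptors, which sense fatty acids and switch on their oxidation, and SREBP1, which insulin uses to drive fatty acid synthesis.

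The FoxO genes themselves were read first. Foxo1 was measured at 185.2 (fed) and 165.5 (starved) in knockout muscle, against 303.8 and 554.4 in control muscle. The brighter Foxo4 probe set was at 31.3 in fed and 34.3 in starved knockout muscle and at 296.9 and 291.3 in control muscle, and no Foxo4 probe set reached the 75th percentile in knockout muscle. Both genes were therefore lower on the 2 knockout arrays than on either control array. Foxo3 was not: it stood at 297.3 fed and 460.9 starved in knockout muscle, a ratio of 1.55, and at 250.1 and 477.8 in control muscle. Probes that lie in exons left in place still bind the transcript after recombination, and where the probes lie was not analysed here. All 12 muscle fibre marker genes were measured, with log2 ratios between -0.12 and 0.11 in knockout muscle and a summed signal of 147902 fed and 147740 starved.

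Of the 7281 genes, 278 were at least 1.5-fold higher in starved than in fed knockout muscle (3.82%) and 394 were lower by the same factor (5.41%). These genes are called up and down here, and the words describe a ratio of 2 arrays, not a test. The remaining 6609 genes, 90.8%, stayed within 1.5-fold, and the median log2 ratio of all genes was -0.06. The split between up and down depended on the scaling of the arrays: 41.4% of the called genes were up with the signals as deposited, and 52.0% when both arrays were brought to the same median. The counts also depended on the limit: with the 75th percentile required on both arrays, 167 genes were up and 262 down, and 166 probe sets that reached it on the starved array alone were up and 213 that reached it on the fed array alone were down. Among the 2486 genes with several probe sets past the limit, the log2 ratios of a gene's probe sets scattered around their mean with an SD of 0.22 in knockout muscle, a spread that holds no difference between mice.

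**Figure D1:**
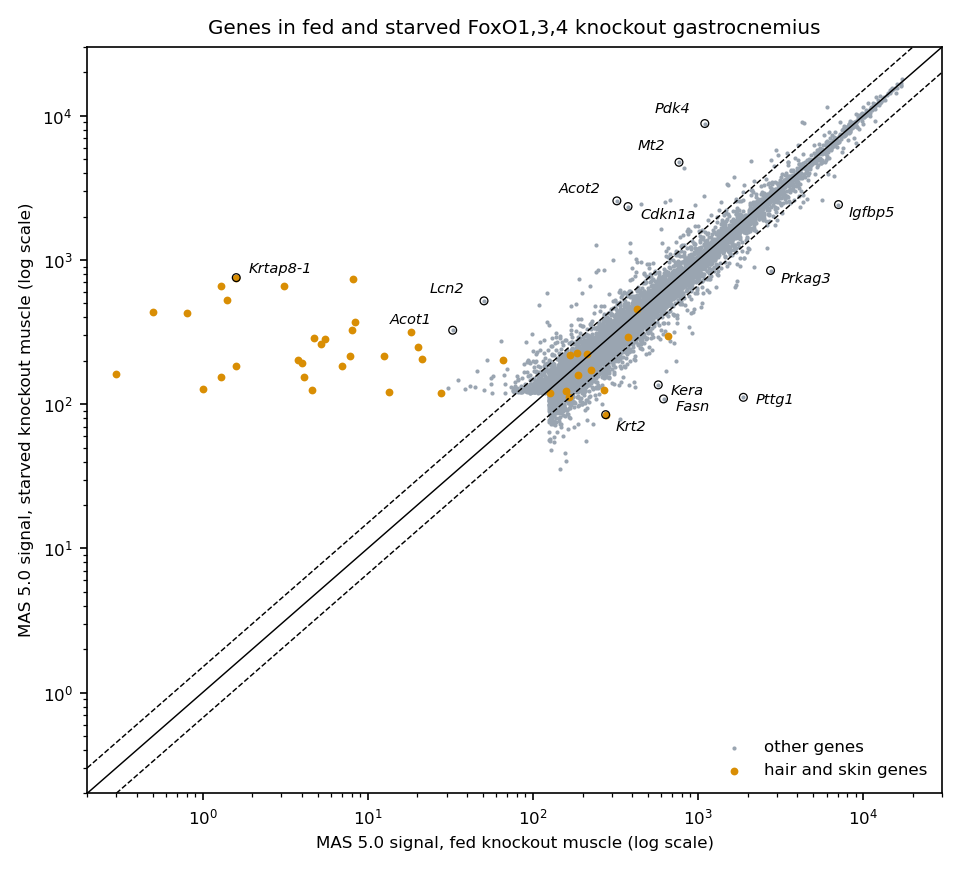
Signal of the 7281 genes in fed (x axis) and starved (y axis) knockout muscle, both on a log scale, 1 point per gene. The solid line marks equal signals and the dashed lines 1.5-fold; 90.8% of genes lie between the dashed lines, most hair genes form a separate cloud with fed signals under the array's median, and Pttg1 lies farthest below the line.

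The largest ratios of all belonged to genes of the hair shaft, and the starved knockout and fed control arrays stood apart from the other 2 in this respect. All 15 of the largest rises were keratin or keratin-associated protein genes, which encode the structural proteins of hair. Krtap8-1 stood at 1.6 in fed and 754.6 in starved knockout muscle, whereas the control arrays gave 144.8 fed and 2.5 starved. Krt33a was at 0.3 and 162.2 in knockout and at 83.8 and 0.6 in control muscle. The fed knockout signals of these genes lie under that array's median of 23.8, so that the ratios have no measured size. Over the whole list of 51 hair shaft genes, the summed signal was 517.4 in fed and 6955.8 in starved knockout muscle, and 3170.3 and 475 in fed and starved control muscle. In 43 of the 51 genes the starved knockout and the fed control signals were both above the other 2 signals. Genes of the epidermis did not share this pattern: 46 of them summed to 4139.7 in fed and 3545.8 in starved knockout muscle and to 1770.9 and 3298.1 in control muscle, and Krt10, a keratin of the upper epidermis, went from 657.6 to 295.3 in knockout muscle. Among the genes analysed, 42 were counted as hair and skin genes, and without them 249 genes were up and 391 down. The part of these genes in the other ratios was not tested. The remaining results leave them out where a list of the largest changes is given.

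**Figure D2:**
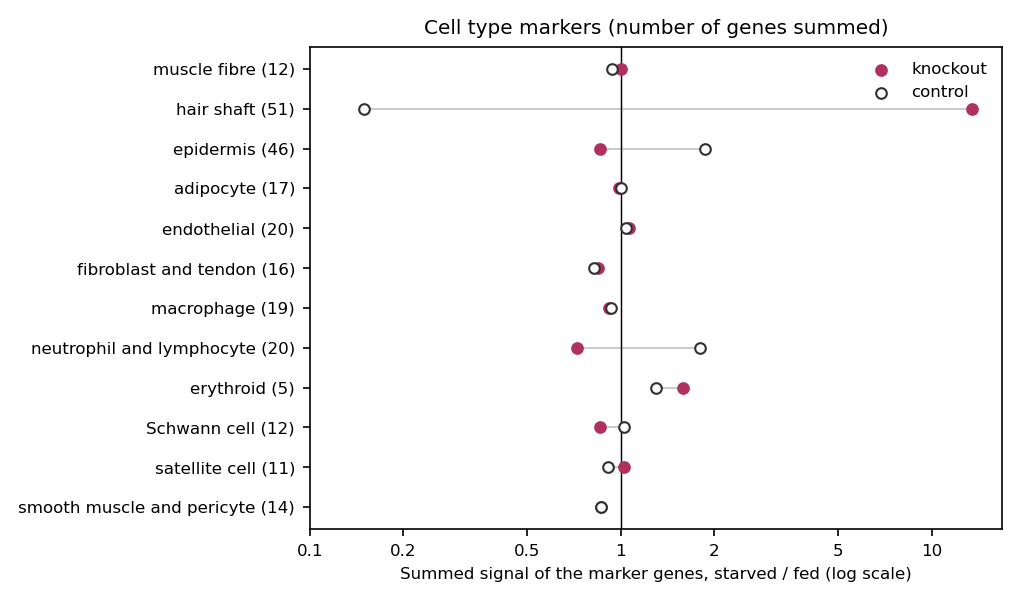
Summed signal of the marker genes of 12 cell types, starved over fed, on a log scale, with filled points for knockout and open points for control muscle; the number of genes summed stands in parentheses. The hair shaft list is at 13.4 in knockout and 0.15 in control muscle, while muscle fibre, adipocyte, endothelial and macrophage lists lie between 0.917 and 1.07 in both genotypes.

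Outside hair and skin, the genes that rose most in starved knockout muscle included genes of fat use and of the stress hormone response. Of those named in this paragraph, Lcn2, Acot1 and Angptl4 had fed signals under the limit of 125.3. They entered the analysis through the starved array alone. Lcn2, which encodes the iron-siderophore carrier lipocalin 2, rose from 50.6 to 520.8, a ratio of 10.3, against 38.1 and 111.5 in control muscle. Acot1 rose from 32.7 to 325.9 and its neighbour in function Acot2 from 322.5 to 2571, ratios of 9.97 and 7.97. Both encode thioesterases that release fatty acids from coenzyme A, in the cytosol and in the mitochondrion, and their control signals moved alike, from 32.9 to 335.6 and from 418.3 to 3942.1. Pdk4, the kinase that shuts off pyruvate dehydrogenase and so spares glucose, rose from 1099.2 to 8836, a ratio of 8.04. In control muscle it started higher, at 3111.8, and reached 13494.9, a ratio of 4.34. Cdkn1a, the cell cycle inhibitor p21, rose from 376.8 to 2347.1, a ratio of 6.23, with log2 ratios of 2.63 and 2.64 on its 2 probe sets. The metallothionein genes Mt2 and Mt1, whose products bind zinc, rose from 766.8 to 4758.9 and from 825.1 to 4314, which is 6.21-fold and 5.23-fold. Fkbp5, a chaperone that binds the glucocorticoid receptor, rose 5.39-fold from 453.9 to 2447.8. Plin5, which ties lipid droplets to mitochondria, rose 5.26-fold from 242.7 to 1275.7, and Angptl4, a secreted inhibitor of lipoprotein lipase, 4.86-fold from 121.7 to 591.2.

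Further down this order came genes of several kinds. Of those named in this paragraph, Cxcl13, Thbs1, Kcnf1, Vnn1 and Gna14 also had fed signals under the limit of 125.3. Cxcl13, a chemokine that attracts B cells, rose 4.42-fold, Thbs1, which encodes the matrix protein thrombospondin 1, 4.33-fold, and Kcnf1, a modulatory potassium channel subunit, 4.22-fold. Ddit4, an inhibitor of mTORC1, rose 4.00-fold, from 630.9 to 2525.9, and in control muscle from 506.6 to 4986.4. Pank1, a pantothenate kinase in the synthesis of coenzyme A, rose 3.87-fold, Fbp2, the muscle fructose bisphosphatase, 3.84-fold, and Ucp3, an uncoupling protein of the inner mitochondrial membrane, 3.46-fold. Vnn1, a pantetheinase and known PPAR target, went from 46.2 to 169.3. Of the 20 largest rises outside hair and skin, 19 were also past 1.5-fold upwards in control muscle, where 6.15% of the same 7281 genes were. The exception was Gna14, a G protein alpha subunit, which went from 35.1 to 147.4 in knockout muscle and from 58 to 34.8 in control muscle. These 20 are the extremes: of all genes up in knockout muscle outside hair and skin, 60.2% were up in control muscle.

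The largest fall was that of Pttg1, which encodes securin, the inhibitor of the protease that parts sister chromatids. Its signal was 1881.5 in fed and 111.6 in starved knockout muscle, a log2 ratio of -4.08, and its other probe set went from 664.7 to 50.5. On the control arrays Pttg1 was at 1440.9 and 1266.2, so that the starved knockout array alone was low. Fasn, the fatty acid synthase gene, fell from 618 to 108.8, a log2 ratio of -2.51, close to its fall from 1003.6 to 156.9 in control muscle. Chad, which encodes the cartilage and tendon protein chondroadherin, fell from 334.6 to 79.1, and Kera, which encodes the collagen-binding proteoglycan keratocan, from 574.3 to 136.2. Nnmt, a methyltransferase of nicotinamide, fell from 145.6 to 35.5, and Aplnr, the apelin receptor, from 730.8 to 198.3. Prkag3, the gamma subunit of AMPK found in fast muscle, fell from 2748 to 845.6, a log2 ratio of -1.70, and Igfbp5, a binding protein for IGF, from 7084.6 to 2422.4, a log2 ratio of -1.55. Plcd4, a phospholipase C, fell from 917.9 to 310.4, and Cdh4, a cadherin, from 415 to 130.7. Trim7, a tripartite motif ubiquitin ligase, fell from 406.9 to 142.4. Of the falls named in this paragraph, Pttg1, Fasn, Chad and Nnmt had starved signals under the limit of 119.9. These genes entered the analysis through the fed array alone. Of the 20 largest falls outside hair and skin, 19 were down in control muscle as well, where 10.8% of the same 7281 genes were, and Pttg1 was the exception. Of all genes down in knockout muscle outside hair and skin, 56.0% were down in control muscle.

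**Figure D3:**
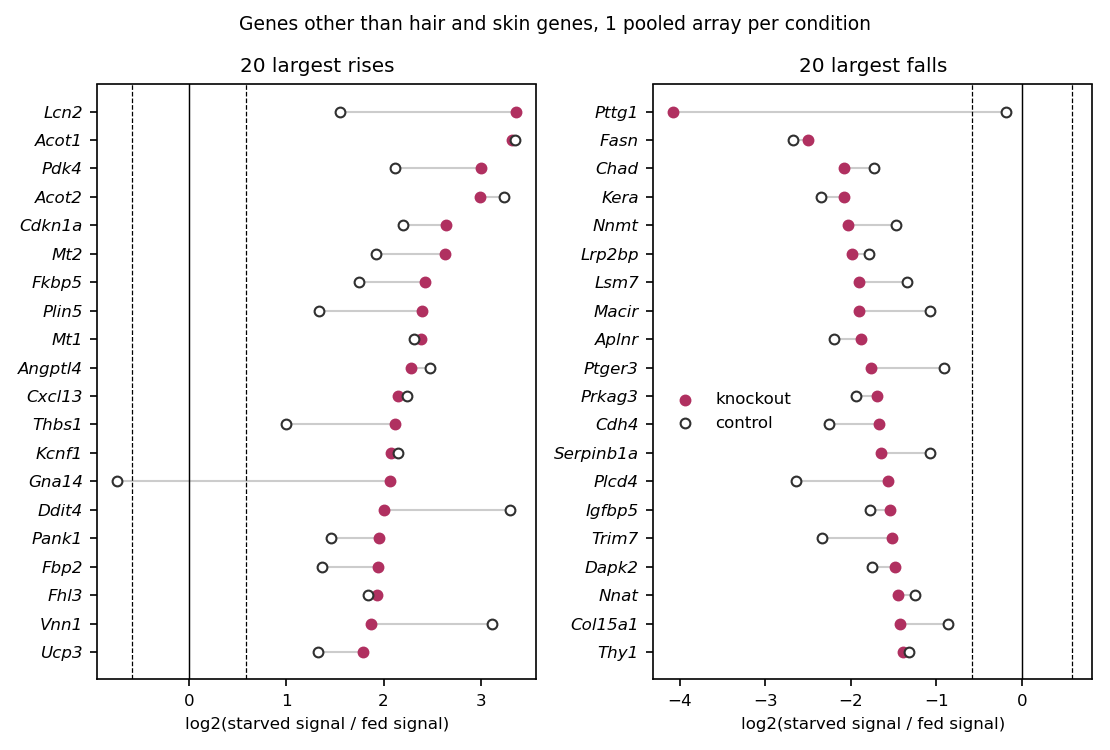
Log2 of starved over fed signal for the 20 largest rises (left) and 20 largest falls (right) outside hair and skin genes, filled for knockout and open for control muscle (1 pooled array each); the 1.5-fold limits are dashed. Control points fall past the dashed line on the same side for all but Gna14 and Pttg1.

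The promoters of the 2 genes that rose most and the 2 that fell most outside hair and skin are shown because these 4 genes carry the extremes of the response. Each stretch holds the 250 bases before the transcription start in RefSeq (build GRCm38.p6), 5′ to 3′ on the strand of the gene, and capitals mark matches to any of 7 short motifs searched on both strands. In Acot1 the capitals are TGTTCT, the core hexamer of glucocorticoid receptor elements, and CCAAT, the box bound by the factor NF-Y, and in Fasn they are CCAAT boxes on either strand, of which the last overlap. None of the 7 motifs was found in the stretches of Lcn2 and Pttg1.
Lcn2, chr2:32387740-32387989, minus strand: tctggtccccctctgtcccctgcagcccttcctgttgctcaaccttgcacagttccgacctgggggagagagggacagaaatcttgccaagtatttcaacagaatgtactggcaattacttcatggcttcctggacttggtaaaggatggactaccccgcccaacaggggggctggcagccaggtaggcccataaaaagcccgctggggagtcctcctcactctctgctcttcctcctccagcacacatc
Acot1, chr12:84009252-84009501, plus strand: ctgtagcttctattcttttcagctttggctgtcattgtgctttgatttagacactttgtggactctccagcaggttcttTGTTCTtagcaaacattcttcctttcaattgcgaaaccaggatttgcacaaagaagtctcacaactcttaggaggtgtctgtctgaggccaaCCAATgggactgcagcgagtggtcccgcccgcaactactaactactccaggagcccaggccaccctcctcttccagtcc
Pttg1, chr11:43425982-43426231, minus strand: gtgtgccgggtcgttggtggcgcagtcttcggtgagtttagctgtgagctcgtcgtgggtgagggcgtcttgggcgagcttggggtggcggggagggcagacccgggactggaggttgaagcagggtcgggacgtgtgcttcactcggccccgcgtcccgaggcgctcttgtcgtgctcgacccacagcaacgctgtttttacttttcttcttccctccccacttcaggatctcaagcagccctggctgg
Fasn, chr11:120824548-120824797, minus strand: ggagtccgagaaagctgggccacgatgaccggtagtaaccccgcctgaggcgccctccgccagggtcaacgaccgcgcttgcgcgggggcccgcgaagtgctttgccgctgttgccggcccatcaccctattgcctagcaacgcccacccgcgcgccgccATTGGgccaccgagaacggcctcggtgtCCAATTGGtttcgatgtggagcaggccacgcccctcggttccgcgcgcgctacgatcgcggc

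The 7 motifs were GTAAACA (forkhead), TGTTCT (glucocorticoid receptor), AGGTCA (PPAR and other nuclear receptors), CACGTG (E-box), TGACGTCA (cyclic AMP response), TGATGCAA (C/EBP and ATF) and CCAAT. Of the 40 largest rises outside hair and skin, 30 had a promoter in the table, and 8 of these (26.7%) held AGGTCA, against 10.3% of the 5946 promoters of the genes analysed and 13.8% of all 27025 promoters. The 8 were Plin5, Cxcl13, Kcnf1, Fhl3, Ucp3, Zranb3, Slc25a34 and Galnt15. The promoters of the PPAR targets Acot1, Pdk4 and Acot2 did not hold this motif. TGTTCT was in 3 of the 30 (10%), against 10.4% of the genes analysed and 16.2% of all promoters, and the forkhead motif in 1 of the 30 (3.33%), against 2.22% and 3.09%. CCAAT was in 10 of the 30 (33.3%) and in 8 of the 32 promoters of the largest falls (25%), against 35.7% of the genes analysed and 34.5% of all promoters. In those 32, AGGTCA was in 4 (12.5%), TGTTCT in 3 (9.38%), CACGTG in 1 (3.12%) and the forkhead motif in 0. CACGTG was in 2 of the 30 promoters of the largest rises (6.67%), against 9.23% of the genes analysed and 6.05% of all promoters. TGACGTCA and TGATGCAA were in none of the 30 or the 32, against 2.96% and 0.555% of the genes analysed and 1.62% and 0.818% of all promoters. With the hair genes kept among the 40 largest rises, 35 promoters were searched and AGGTCA was in 5 (14.3%), TGTTCT in 4 (11.4%), CCAAT in 11 (31.4%), CACGTG in 3 (8.57%), TGATGCAA in 1 (2.86%) and the others in 0. A match is a run of letters, not a shown binding site.

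Of the 32 oxidation genes and PPAR targets analysed in starved knockout muscle, 17 were up and none down, where 3.82% of all genes were up and 5.41% down, and the list's median log2 ratio was 0.59 against -0.06 for all genes. All 32 ratios were above 1. Of the 17, the genes Pdk4, Angptl4, Ucp3, Plin2, Plin5, Vnn1, Cd36, Fabp3, Acot1 and Acot2 are PPAR targets outside the oxidation cycle, and most enzymes of the cycle itself were not called. In control muscle 13 of the 32 were up and 1 down, with a median of 0.38, where 6.15% of the same 7281 genes were up. The uptake genes Cd36, a fatty acid translocase, and Fabp3, the fatty acid binding protein of muscle, went from 2760.4 to 4967 and from 6054.2 to 11535.2. For entry into mitochondria, the carnitine carrier gene Slc25a20 rose from 961.9 to 1713.9, whereas Cpt2 went from 547.2 to 812.8, a log2 ratio of 0.57 that stayed just under the threshold, and Cpt1a from 192.7 to 244.9. Mlycd, which removes the malonyl-CoA that blocks this entry, rose from 419.7 to 1020.5 and in control muscle from 460.1 to 1105.4. Within the cycle of oxidation Acadl rose from 2884.8 to 4475.3, Hadha from 728.7 to 1101.4, Decr1 from 827.6 to 1265.6, Eci2 from 856.5 to 1593.7 and Etfdh, which passes the electrons on, from 1484.8 to 2236.5. Acadm went from 5247.4 to 5620.6 and Hadh from 6606.2 to 6694.2, and neither was called. Acaa2, the thiolase of the last step, went from 790.8 to 1152.4 in knockout muscle, a log2 ratio of 0.54, and fell from 753 to 462.7 in control muscle. The log2 ratio was higher in knockout than in control muscle for 25 of the 32 genes, a difference that could not be tested. This count was not particular to the list: it was 31 of 34 for complex I and 18 of 18 for ATP synthase, but 9 of 45 for proteasome genes. Over all 7281 genes the median log2 ratio was -0.06 in knockout and -0.11 in control muscle.

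Lipid droplet genes followed, with 9 of 18 up and 1 down, against 3.82% and 5.41% of all genes, and several of them are shared with the preceding list. Besides Plin5, the droplet coat genes Plin4 and Plin2 rose from 1087.1 to 2784 and from 313.6 to 470.5, and Cidec, which enlarges droplets, from 238.7 to 481.8. Pnpla2, which encodes the triglyceride lipase ATGL, rose from 730.9 to 1328.3 in knockout and from 1124.4 to 2904 in control muscle. Its inhibitor G0s2 fell from 1183.2 to 741.9 in knockout and from 1769.9 to 476.4 in control muscle. Gpihbp1, the anchor of lipoprotein lipase on capillaries, rose from 1153.7 to 1883.9, while Lpl itself stayed at 8158.6 and 8168.6. Carriers of the inner mitochondrial membrane moved both ways, with 6 of 25 up and 2 down. Slc25a34 rose from 90.9 to 269.4, Slc25a22, a glutamate carrier, from 123.7 to 235.8, and Slc25a25, a calcium-regulated ATP-Mg and phosphate carrier, from 102.8 to 195. Slc25a30 and Slc25a33 fell, from 268.9 to 151.6 and from 245.9 to 142.6, and in control muscle neither was called.

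Outside the hair lists, glucocorticoid-induced genes had the highest share of rises among lists of at least 8 genes, 13 of 23 up (56.5%, where 3.82% of all genes were) and 2 down, with a median log2 ratio of 0.65. In control muscle 18 were up, where 6.15% of the same 7281 genes were, and 1 down, with a median of 1.16. The medians over all 7281 genes were -0.06 in knockout and -0.11 in control muscle. The log2 ratio was higher in knockout than in control muscle for 5 of the 23. These 5 were Lcn2, Mt2, Fkbp5, Pik3r1 and Bcl6, of which Bcl6 fell in both, with log2 ratios of -0.61 in knockout and -1.47 in control muscle. Pik3r1, the regulatory subunit of PI3-kinase, rose from 659.2 to 1217.6 in knockout muscle and was at 736.9 and 777.3 in control muscle. Other members rose less than in control muscle: Cebpd, a C/EBP transcription factor, went from 600.7 to 1640.2 against 664.9 to 6205.3, and Klf15, a regulator of amino acid use, from 225 to 348.9 against 351.9 to 939.5. Zbtb16, a zinc finger gene strongly induced by glucocorticoids, rose from 472.7 to 808.4, Map3k6 from 79.8 to 157.5, Fam107a from 170.7 to 328 and Arrdc2, an alpha-arrestin, from 138.7 to 293.2. Tsc22d3, the gene of the glucocorticoid-induced leucine zipper, stayed at 2677.6 and 2731 in knockout muscle and rose from 2947.9 to 4777.5 in control muscle. Errfi1, a feedback inhibitor of the EGF receptor, likewise stayed at 721.6 and 727, against 622.2 and 1677.2 in control muscle. The members that fell were Dusp1, a MAP kinase phosphatase, from 2631.6 to 1215.1, and Bcl6, a transcriptional repressor, from 662.3 to 432.6.

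Genes of insulin signalling and of glucose storage moved in both directions. For each list in this paragraph, the shares over all genes were 3.82% up and 5.41% down. Of 22 insulin and IGF signalling genes 3 were up and 4 down. Igf1, the growth factor made in muscle, fell from 744 to 366.4, with log2 ratios between -1.08 and -0.19 on its 4 probe sets. Irs1, the adaptor of the insulin receptor, fell from 834.4 to 490.4 in knockout muscle and was at 1323.4 and 1492.1 in control muscle. Grb14, an inhibitor of the insulin receptor, fell from 658.6 to 408.7, while Igfbp3 rose from 257.9 to 480.1 and Tbc1d4, which holds glucose transporters inside the cell, from 104.3 to 167.9. Among 29 genes of glycolysis and glycogen, 3 were up and 2 down. Ppp1r3c and Ppp1r3d, which target a phosphatase to glycogen and favour its synthesis, rose from 4288.2 to 9085.2 and from 130.1 to 224.3, whereas in control muscle they were at 4236.8 and 4052.7 and at 121.2 and 112.8. Fbp2, given above, was also up. Pfkfb3, which makes an activator of glycolysis, fell from 358.5 to 184 in knockout muscle, and in control muscle it rose from 1301.1 to 2101.7. Gpd2, the mitochondrial glycerol phosphate dehydrogenase, fell from 1160.7 to 738.4. Of 30 mTORC1 and nutrient sensing genes, Ddit4, Eif4ebp1 and Sesn1 were up and Prkag3 was down. Eif4ebp1, a brake on translation initiation, went from 874.3 to 1507.3 and Sesn1, a leucine sensor, from 327.1 to 506.4 on its brightest probe set, with log2 ratios from 0.03 to 0.63 over its 3 probe sets. In control muscle Eif4ebp1 went from 1316.3 to 5621.3 and Sesn1 from 461.3 to 2376.9.

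Genes of fatty acid and sterol synthesis were mostly lower in starved knockout muscle. Of 23, 10 were down (43.5%, where 5.41% of all genes were) and 1 was up, with a median log2 ratio of -0.48. Control muscle gave 10 down and 2 up with a median of -0.46, where 10.8% of the same 7281 genes were down, and 8 genes were down in both. Srebf1, which encodes SREBP1, fell from 711.5 to 416. On the way from citrate to fatty acids Acly fell from 601.7 to 399.9, and Acaca, the cytosolic acetyl-CoA carboxylase, and Fasn, given above, were down as well. Of the enzymes that lengthen and desaturate, Elovl6 fell from 144.4 to 77 and Scd2 from 936.3 to 438.6, while Scd1 went from 8994.1 to 6432 and was not called. Thrsp, a lipogenic cofactor, fell from 714.9 to 315.7. In the sterol branch Idi1, Fdps and Msmo1 fell, from 239.6 to 152.5, from 246.7 to 158.4 and from 152.6 to 90.4. Acacb was the member that rose, from 549.8 to 829.4, and it encodes the mitochondrial carboxylase whose product restrains fatty acid entry.

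Of 46 collagens and other matrix genes, 16 were down (34.8%) and 4 up, where 5.41% and 3.82% of all genes were, with a median log2 ratio of -0.25. Control muscle gave 17 down and 4 up, where 10.8% and 6.15% of the same 7281 genes were, and 14 genes were down in both. The fibrillar collagen genes Col1a1, Col1a2, Col3a1, Col5a1 and Col5a2 fell, Col3a1 from 5615.9 to 2615.3 and Col1a1 from 571.5 to 293.9. Col6a1, Col6a2 and Col6a3, the chains of the collagen that surrounds muscle fibres, fell from 743.5 to 397.1, from 911.2 to 430.5 and from 941.5 to 458.2. Serpinh1, the chaperone of collagen folding, fell from 631.2 to 322.7, and Lum, a proteoglycan of collagen fibrils, from 1792.7 to 906.2. The largest fall of the list was that of another collagen gene, Col15a1, from 129.3 to 48.3, a log2 ratio of -1.42. Its starved signal was under the limit of 119.9. The basement membrane genes Col4a1, Col4a2, Nid1 and Lamb1 were not called, with log2 ratios from 0.06 to 0.12. The members that rose were Lox, which cross-links collagen, from 307.2 to 1003.8, Thbs1, Ccn1 from 420.8 to 830.3 and Ccn2 from 811.7 to 1479.6, and all 4 rose in control muscle too. Markers of fibroblasts and tendon overlap with this list and gave 6 of 14 down and none up. Their median log2 ratio was -0.48, and 1 of the 14 log2 ratios was above 0. Tnmd, a tendon glycoprotein, fell from 1064.2 to 502.4, while Pdgfra and Dcn, among the least changed of the 14, stood at 671.2 and 628.6 and at 12288.5 and 12263.5. The summed signal of 16 such markers was 48310.1 fed and 40917.4 starved in knockout and 53313.7 and 43862.7 in control muscle. In pooled muscle, fewer cells of a type and less RNA per cell cannot be told apart. Of 15 macrophage genes 3 fell, C1qb, C1qc and Mrc1, with a summed signal of 19 markers of 10564.3 fed and 9689.6 starved, and of 18 endothelial genes 1 fell, the VEGF receptor gene Kdr. None of the 20 neutrophil and lymphocyte genes reached the 75th percentile. Of 13 adipocyte genes 3 were up (Pck1, Cidec and Lep) and 3 down (Thrsp, Aoc3 and Retn).

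**Figure D4:**
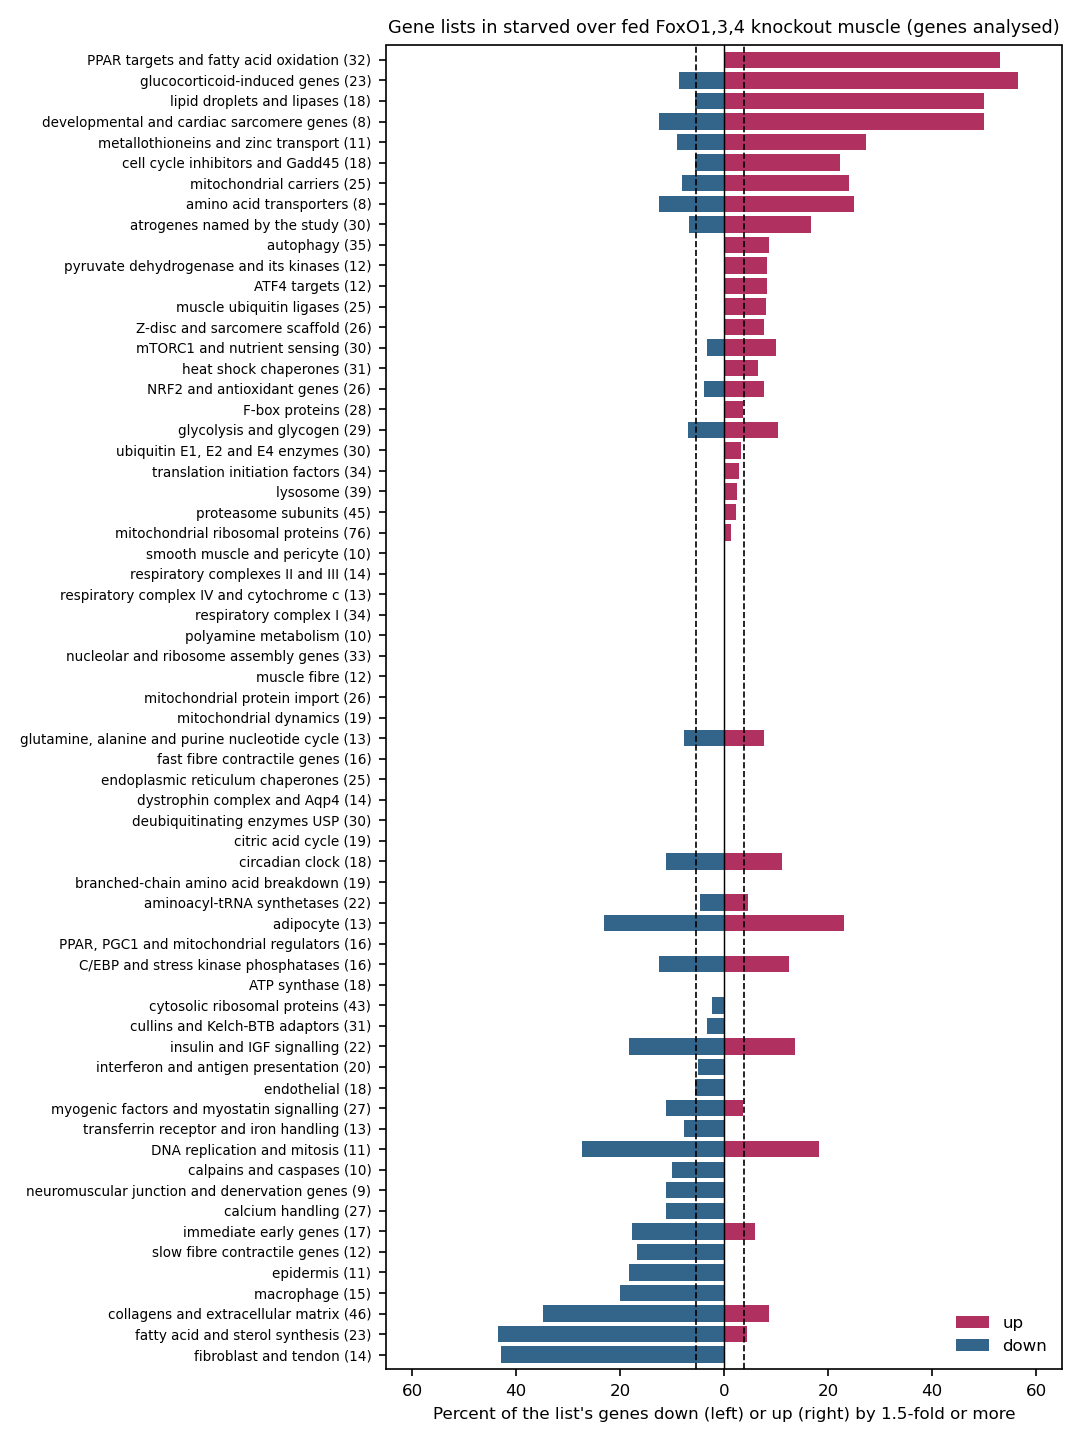
Percent of each list's genes that were up (right) or down (left) by 1.5-fold or more in starved over fed knockout muscle, for lists with at least 8 genes analysed other than the hair shaft, with the number of genes in parentheses; dashed lines mark the share over all 7281 genes, 3.82% up and 5.41% down. Fatty acid oxidation, glucocorticoid-induced, lipid droplet and developmental sarcomere lists reach 50% or more up, fatty acid synthesis and fibroblast and tendon lists exceed 40% down, and lists of the respiratory chain show no bar.

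Among 8 developmental and cardiac sarcomere genes 4 were up and 1 down, against 3.82% and 5.41% of all genes. Ankrd2 and Ankrd1, ankyrin repeat proteins of the I-band that respond to stretch, rose from 1496.1 to 3348.8 and from 93.7 to 199.6, Csrp3, the muscle LIM protein, from 3040.2 to 5315.3 and Xirp1 from 469.4 to 796.7. Their log2 ratios differed from those of control muscle by at most 0.17, and Csrp3 went from 3300.5 to 5305.5 there. Ky, which encodes kyphoscoliosis peptidase, fell from 1680.8 to 652.2, and in control muscle from 1595.7 to 129.5. Flnc, filamin C of the Z-disc, rose from 897.5 to 1585.5. None of 16 fast fibre contractile genes was called, while of 12 slow fibre genes Pln, phospholamban, fell from 241 to 128.5 and Sln, sarcolipin, from 215.1 to 143.3. Both inhibit the calcium pump of the sarcoplasmic reticulum, and with Camk2a they made up 3 of 27 calcium handling genes that were down. Of 27 myogenic and myostatin signalling genes, Myf6 rose from 1896.8 to 3288.3, and Maf, Fstl1 and Mef2c fell.

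Of 30 genes listed as atrogenes, 5 were up (16.7%) and 2 down (6.67%), where 3.82% and 5.41% of all genes were. The list was drawn from the study, whose text does not name 1 member, Psmd4. The median log2 ratio of these atrogenes was 0.10. In control muscle 18 of them, Psmd4 included, were up and 1 down, with a median of 0.66, where 6.15% of the same 7281 genes were up. The study had picked part of this list from these arrays. Fbxo32, the ubiquitin ligase atrogin1, rose from 1643.9 to 3735.5, with log2 ratios from 0.78 to 1.61 on 3 probe sets, and Trim63, the ligase MuRF1, went from 3510.1 to 4759.1, a log2 ratio of 0.44. In control muscle Fbxo32 rose from 2485.4 to 11326.4 and Trim63 from 4465.1 to 10852.6. Of 35 autophagy genes 3 were up (8.57%), namely Depp1 from 199.6 to 594, Gabarapl1 from 482.3 to 773.9 and Calcoco1 from 89.4 to 138.8. Depp1, a FoxO target linked to autophagy, went from 234.8 to 4760.7 in control muscle, and its probe sets had log2 ratios of 0.81 and 1.57 in knockout muscle. Gabarapl1 went from 626.6 to 2592.7 and Calcoco1 from 176.4 to 247.7 in control muscle. Ulk1, the kinase that starts autophagy, stayed at 373.3 and 371.9 and Sqstm1, the cargo receptor p62, went from 1391.4 to 1823.9. In control muscle they went from 424.5 to 1145.7 and from 2022.5 to 3370.8. Of 45 proteasome subunit genes 1 was up, Psmf1, with a log2 ratio of 0.92 on the probe set that stood for it and -0.09 on its other one, which passed the limit on both arrays, and of 39 lysosomal genes 1, the proton pump subunit gene Atp6v1h. Of 17 immediate early genes 3 were down and 1 up: Fos fell from 675.6 to 274.9, Egr1 from 877.2 to 341.7 and Dusp1 as given above, and Klf10 rose from 357.1 to 590. In control muscle 10 of the 17 were up, where 6.15% of the same 7281 genes were, and none down, and Fos went from 410.1 to 1157.6.

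Several lists held no gene past the threshold, which 90.8% of all genes did not pass either. None of 34 complex I, 14 complex II and III, 13 complex IV and 18 ATP synthase genes was called, and the lowest of the list medians was -0.08. The same held for 19 citric acid cycle genes, 19 genes of branched-chain amino acid breakdown, 19 of mitochondrial dynamics, 33 of ribosome assembly and 25 endoplasmic reticulum chaperones. Of 43 cytosolic ribosomal protein genes 1 was down, Rpl39, and of 76 mitochondrial ribosomal protein genes 1 was up, Mrps35. The signs of medians this close to 0 turned with the scaling of the arrays for several of these lists.

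Set beside control muscle, fewer genes were called in knockout muscle. In control muscle 448 of the same genes (6.15%) were up and 788 (10.8%) down. With quantile normalization within each genotype these were 558 and 596, against 334 and 300 in knockout muscle. The 7281 genes were chosen on the knockout arrays alone. Of the 278 genes up in knockout muscle 150 (54.0%) were up in control muscle, where 6.15% of all genes were. The 150 are 33.5% of the control's 448, and 3.82% of all genes were up in knockout muscle. Of the 394 genes down, 219 (55.6%) were down in control muscle, where 10.8% of all genes were. The 219 are 27.8% of the control's 788, and 5.41% of all genes were down in knockout muscle. A further 94 genes were up and 169 down in knockout muscle while within 1.5-fold in control muscle, and 292 and 535 the other way round. Across genes, the log2 ratios of the genotypes had a Pearson correlation of -0.01 over all 7281 genes and of 0.61 over the 7239 without hair and skin genes, with Spearman's rho of 0.51 and 0.53. Genes are not replicates, and these correlations only describe the arrays. The log2 ratio was smaller in size in knockout than in control muscle for 4629 of the 7239. With these signals as deposited, the medians of the 7239 were -0.06 in knockout and -0.11 in control muscle. Among the 640 of them past 1.5-fold in knockout muscle, a set chosen on the knockout ratio, it was smaller there for 254.

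**Figure D5:**
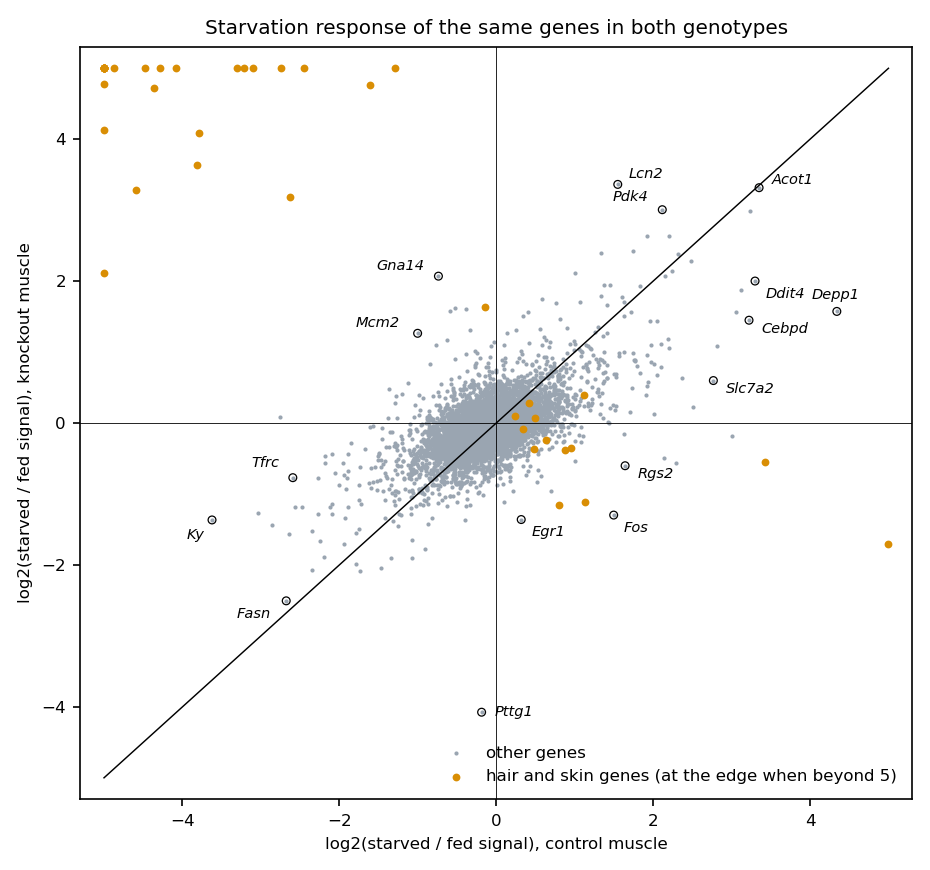
Log2 of starved over fed signal in control (x axis) and knockout (y axis) muscle for the 7281 genes, 1 point per gene, with the line of equal response; hair and skin genes beyond 5 are drawn at the edge. Outside hair and skin genes the Pearson correlation is 0.61, and the log2 ratio is smaller in size in knockout muscle for 4629 of 7239 genes. Among the 640 of these past 1.5-fold in knockout muscle it is smaller for 254. Depp1, Cebpd and Slc7a2 lie to the right of the line and Gna14, Mcm2 and Pttg1 far from it.

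Some genes gave nearly the same ratio in both genotypes. Among genes at least 2-fold up in both genotypes, the smallest differences were those of Enc1 (145.2 to 299.3 in knockout and 174.2 to 360.6 in control muscle), Mlycd, Acot1, Abhd1, Plin4, Cidec, Mt1 and Kcnf1, with log2 ratios that differed by at most 0.07. Among genes at least 2-fold down in both they were those of Col6a3, Asb15, a muscle ubiquitin ligase adaptor that fell from 2174.4 to 895.7, Ndn, Thy1, Ret, Alpl, Rian and Lingo3. Several genes were up in knockout muscle and not in control muscle. Mcm2, a subunit of the replicative helicase, went from 66.5 to 159.8 in knockout and from 193.9 to 96.8 in control muscle. Zranb3, an annealing helicase, went from 98.9 to 305.4 against 107.8 and 75, and Parp3, a poly(ADP-ribose) polymerase, from 220.4 to 656.2 against 570.7 and 378.2, with log2 ratios from 0.27 to 1.57 on its 3 probe sets. Chd6, a chromatin remodeller, went from 138.5 to 312.4 against 122.8 and 79.5, Mamstr, a coactivator of MEF2 factors, from 118.3 to 209.8 against 112.6 and 62.7, and Car14, a carbonic anhydrase, from 389.7 to 1315.1 against 350.2 and 524.4, a log2 ratio of 0.58 in control muscle that stayed just under the threshold. Lep, the leptin gene of fat cells, went from 127.9 to 253.9 against 278.8 and 235. Besides Pttg1, Fos, Egr1 and Pfkfb3, Rgs2, a regulator of G protein signalling, was lower relative to control: it went from 238.1 to 156.9, with a fall on all 3 probe sets, and from 324.4 to 1013 in control muscle. Mcm2, Zranb3 and Mamstr reached the 75th percentile on the starved knockout array alone. None of these differences between the genotypes could be tested.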

How the data were processed

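RNA of 6 gastrocnemius muscles from 3 mice was pooled per condition by the authors and hybridized to 1 Affymetrix array. The deposited values are signal intensities on a linear scale, summarized by the authors with MAS5, and the submitters' processing notes list Affymetrix Expression Console too. No source used here states a scaling target or detection calls. Precision is limited by the number of arrays. The signals were used as deposited, and a signal of 0 was set to 0.1. Of 45037 probe sets other than 64 Affymetrix controls, 34945 have 1 gene in the platform annotation and 932 several, the 9160 others being unlisted, and 34741 symbols were brought up to date by gene identifier through RefSeq. The probe set with the highest mean over both knockout arrays stood for its gene, and 10962 probe sets stood for 7281 genes. Ratios were computed with numpy 2.4.6 and pandas 2.3.3 under Python 3.11.15 and drawn with matplotlib 3.10.9, and calls used the 1.5-fold threshold of the study's methods. Named were the FoxO genes, the 15 largest rises and falls, genes most alike or most different between genotypes or moving in opposite directions, and up to 4 members of each of 72 lists in each direction. Genes chosen by size or by comparing the genotypes needed 1 direction on all their probe sets, while the FoxO genes and list members did not. Since all 15 rises were hair genes, the 20 largest rises and falls and the promoters outside hair and skin, and the genes most above control there, were chosen after their values were seen, as were a few list members named for their role. The members and lists were chosen with earlier results of these data known. Alternatives were scaling, filter, offset, probe set, threshold and leaving out hair and skin genes.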

Additional observations from a re-analysis of the deposited data

Results flagged for a closer look

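The genes below moved in opposite directions in the 2 genotypes, past 1.5-fold in both, and with 1 array per condition the difference was not tested. Each value is the log2 ratio of starved to fed signal in knockout minus that in control muscle. For hair keratin genes it was 18.14 for Krtap19-2, 17.06 for Krtap16-3, 16.20 for Krt33a, 14.74 for Krtap8-1 and 12.77 for Krtap7-1, in each case with the lower signals under the median of their arrays. Outside hair and skin it was 2.81 for Gna14, 2.27 for Mcm2, 2.17 for Parp3, 1.80 for Chd6 and 1.67 for Mamstr, all up in knockout and down in control muscle. Gna14, Mcm2 and Mamstr reached the 75th percentile on the starved knockout array alone, and with both arrays required the genes up in knockout and down in control muscle numbered 2 in place of 34. The log2 ratio of Parp3 in knockout muscle was 1.57, 1.05 and 0.27 on its 3 probe sets. Among genes down in knockout and up in control muscle it was -6.91 for the epidermal keratin gene Krt2, whose fed control signal of 1.3 is under that array's median of 26.3 so that the difference has no measured size, -2.79 for Fos, -2.24 for Krtdap, -1.96 for Krt10 and -1.65 for Pfkfb3, of which Krt2, Krtdap and Krt10 are expressed in skin. The part of skin or hair in the muscle samples was not tested.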

How the results depend on the processing

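The counts of genes up (278), down (394), up in both genotypes (150), down in both (219) and in opposite directions (40) were within 1.5 times under each of the 3 scalings, an offset of 32, the mean over probe sets and the probe set brightest in fed muscle. In the same order, a filter at the 50th percentile gave 857, 1084, 307, 463 and 222, and no filter 2748, 2985, 981, 1113 and 1445. Requiring the 75th percentile on both arrays gave 167 up, 262 down and 7 in opposite directions. A 2-fold threshold gave 108, 74, 48 and 43 for the first 4. Genes in opposite directions numbered 20 without the hair shaft and epidermis lists and 9 without all keratin genes as well, an alternative chosen after seeing the data, like the requirement that all probe sets of a gene pass, which left 254 up and 348 down. The share of called genes that were up was 41.4% as deposited and 52.0%, 51.8% and 52.7% with the same median, the same trimmed mean and quantile normalization. No list median of at least 0.1 in size changed sign. Of 224 named genes 3 changed sign: the log2 ratio of Psmf1 was -0.0898 with both arrays past the percentile and with the brightest fed probe set, that of Qars -0.0472 with the latter and that of Ube2d-ps -0.0226 as the mean over probe sets. No paired analysis was possible because each condition has 1 array, and leaving out an array leaves no ratio. Signals under the array medians limit what can be said of dim genes.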

Other observations

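Lists not described above moved in both directions or in a few members, where 3.82% of all genes were up and 5.41% down in knockout muscle. Of 18 clock genes in knockout muscle, Per1 rose from 224.5 to 366.1 and Cry2 from 125.7 to 202.8, both of which repress the clock's activators, while Dbp, an output gene, fell from 1885.5 to 1024.5 and Per3 from 240.6 to 142. Of 18 cell cycle inhibitor and Gadd45 genes 4 were up and 1 down. Besides Cdkn1a, the p53-inducible Trp53inp1 rose from 504 to 940.7 and Gadd45g from 643.7 to 1149.5, and Gadd45b fell from 827.9 to 545.4. Among 26 antioxidant genes catalase, Cat, rose from 1203.4 to 2063.2 and the thioredoxin inhibitor Txnip from 4007.6 to 6255.5, and the glutathione transferase gene Gsta4 fell from 385.8 to 198.6. The small heat shock genes Hspb1 and Hspb7 were the 2 of 31 chaperone genes that were up, from 2972 to 5801 and from 3455.2 to 5549.4.

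Transporters of small metabolites moved both ways, where 3.82% of all genes were up and 5.41% down. Of 8 amino acid transporter genes 2 were up and 1 down. Of 7 genes of ketone bodies and monocarboxylate transport 1 was up and 1 down. Slc16a3, which encodes the lactate exporter MCT4, rose from 156.3 to 280.3 in knockout muscle and was at 129.8 and 108.1 in control muscle. Slc16a10 fell from 279.7 to 163.7 in knockout and from 338 to 156.1 in control muscle. The zinc transporter gene Slc30a2 rose from 96.3 to 194.2. Slc7a2, a carrier of arginine and other cationic amino acids, rose from 504.4 to 763.8, against 508 and 3459.9 in control muscle. Slc38a4 rose from 547.2 to 838.7, against 818.2 and 794.9 in control muscle. Slc1a5, a glutamine carrier, fell from 277.5 to 184.1. Tfrc, the transferrin receptor, fell from 2029.4 to 1190.1 in knockout and from 1706.9 to 282.9 in control muscle.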
